A study of Mus musculus with 12 samples.

Results

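Interferon-stimulated genes were followed in the hypothalamus of Asmt-knockout and swimming mice: Irf7, Ifit1, Ifit3, Oasl2, Bst2, Isg15, Usp18 and Rtp4. They were chosen by symbol in the normalized data table, which held 9 probes for these 8 genes among 56605 probes for 27308 symbols. Irf7 had 2 probes and each other gene had 1. All 9 probes were well above the local background on all 12 arrays, and all 9 were among the 35230 probes tested.

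RNA of the whole hypothalamus was hybridized to 1-color Agilent mouse arrays, 3 per group: wild-type control mice (WT), homozygous Asmt-knockout control mice (KO), wild-type mice trained by swimming (WT-swim) and knockout mice trained by swimming (KO-swim). Asmt encodes the last enzyme of melatonin synthesis. All groups were male C57BL/6 mice labelled as 6-7 weeks of age, and the WT and WT-swim mice were littermates of the knockouts. By the methods, 6-7 weeks was the age at which swimming began. Tissue was taken after weeks of training, so the mice were then older, and their age at collection is not stated. The knockout came from a CRISPR/Cas9 founder with a 20 bp deletion that had been backcrossed for 3 generations to wild-type littermates, so it is a single deletion allele, and by the study's own account the C57BL/6 background already has low Asmt activity. The Asmt probe was well above background on 0 of 12 arrays, so these arrays do not check the knockout. The labels do not say whether the 3 replicates of a group were separate mice, and p-values therefore measure only the spread between these samples, which may be technical.

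Type I interferons are cytokines made when a cell senses foreign or misplaced nucleic acid. They bind a receptor made of Ifnar1 and Ifnar2, and the signal ends on response elements in the promoters of interferon-stimulated genes, where Irf9 takes part in binding DNA. The brain keeps a low, tonic expression of these genes, and microglia, endothelium, astrocytes and neurons can all raise it. In whole tissue, fewer cells of a type and less RNA per cell cannot be told apart.

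The promoters of the 8 genes were searched for the letters of known response elements. RefSeq promoter windows (GRCm38.p6, 250 bases before to 50 bases after the start site) were found for 6 of the 8 genes; Usp18 and Rtp4 had no entry. The core letters of the interferon-stimulated response element, GAAA and GAAA with any 2 bases between, on either strand, were present in 4 of these 6 windows, against 3.44% of all 32851 promoters in the table, 44.7% of those found for a wider list of interferon-stimulated genes, 45% for type II interferon and antigen presentation genes and 52.9% for interferon ligands. The same core followed by CT was in 3 of the 6 windows and in 0.271% of all promoters. The gamma-activated site TTCNNNGAA was in 1 of the 6, that of Bst2, and in 8.3% of all promoters. The stretches that hold the core are printed 5′ to 3′ on the strand of the gene, with every match of the core in capitals, since 4 of the 8 members hold it.
Ifit1: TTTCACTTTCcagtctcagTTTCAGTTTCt
Ifit3, distal match: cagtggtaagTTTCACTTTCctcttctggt
Ifit3, proximal match: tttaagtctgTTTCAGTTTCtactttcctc
Isg15: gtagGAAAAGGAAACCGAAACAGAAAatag
Bst2: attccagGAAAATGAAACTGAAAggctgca
The Ifit1 stretch lies at chr19:34640785-34640814 on the forward strand and holds 2 matches. The Ifit3 stretches lie at chr19:34583363-34583392 and chr19:34583397-34583426, also forward. The Isg15 stretch, chr4:156200871-156200900 on the reverse strand, has 3 overlapping matches, and the Bst2 stretch, chr8:71537580-71537609 on the reverse strand, has 2 overlapping matches. All lie between positions -166 and -53 from the start site. The windows of Irf7 and Oasl2 hold none of the 3 sets of letters within these bases. A match of letters is a description and not a measured binding site.

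**Figure D1:**
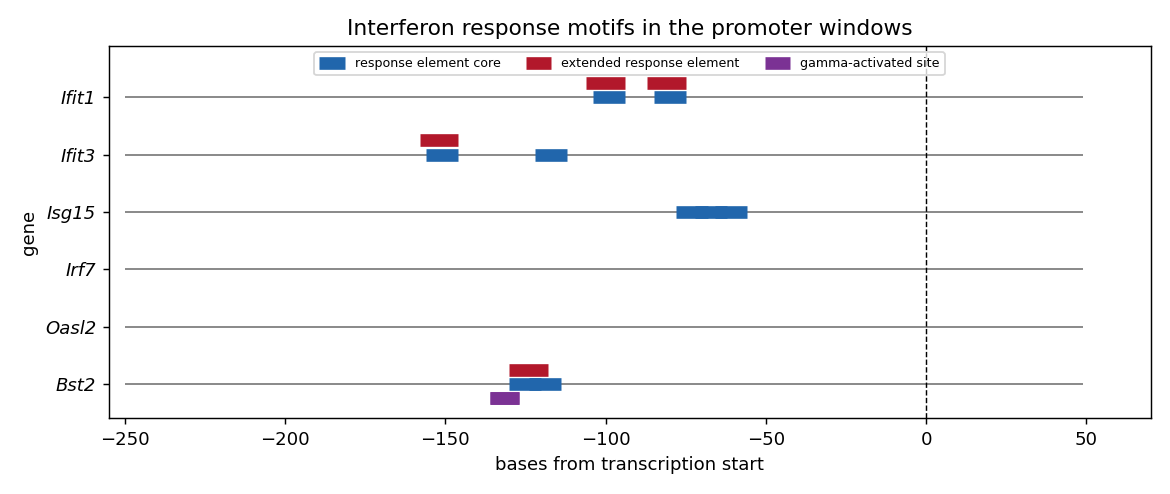
Positions of the response element core (blue), the extended element (red) and the gamma-activated site (purple) in the promoter windows of 6 genes; the x axis is bases from the transcription start and each grey line is 1 window. Ifit1, Ifit3, Isg15 and Bst2 hold the core, and Irf7 and Oasl2 hold none.

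Array quality was similar across the series. The share of spots well above background ran from 61.62% to 67.91%, 0 spots were saturated, and arrays of 1 group correlated at 0.985 to 0.9965 over all tested probes. The arrays lay on 2 slides: WT 1 to 3, KO 1 and KO 2 were on slide 1, and KO 3 and all WT-swim and KO-swim arrays were on slide 2. All 14 hypothalamic marker genes passed the detection filter, Sim1 only through the swimming groups. Sim1 was well above background on 2 of 3 WT and 1 of 3 KO arrays. The first principal component, with 47.3% of the variance, separated the slides. WT-swim and KO-swim can therefore be compared within slide 2, whereas WT and WT-swim share no slide and are joined only through KO. With slide as a block, KO 3 alone stands for KO against the swimming groups and KO 1 and KO 2 alone against WT.

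Values below are the authors' quantile-normalized log2 signals, fold changes are log2 differences between groups, and tests are limma fits over all 12 arrays with Benjamini-Hochberg adjustment over 35230 probes. Levels of different genes cannot be ranked, because probes differ in brightness.

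No member reached an adjusted p under 0.05 or the screening criterion of the study's methods (a 2-fold difference or more in either direction, together with an unadjusted p no higher than 0.05) in any of the 5 group comparisons or in the swimming by genotype interaction. No fitted log2 difference of the brighter or only probe of a gene exceeded 0.45 in size. The array KO-swim 1 stood above KO-swim 2 and KO-swim 3 for all 8 genes.

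**Figure D2:**
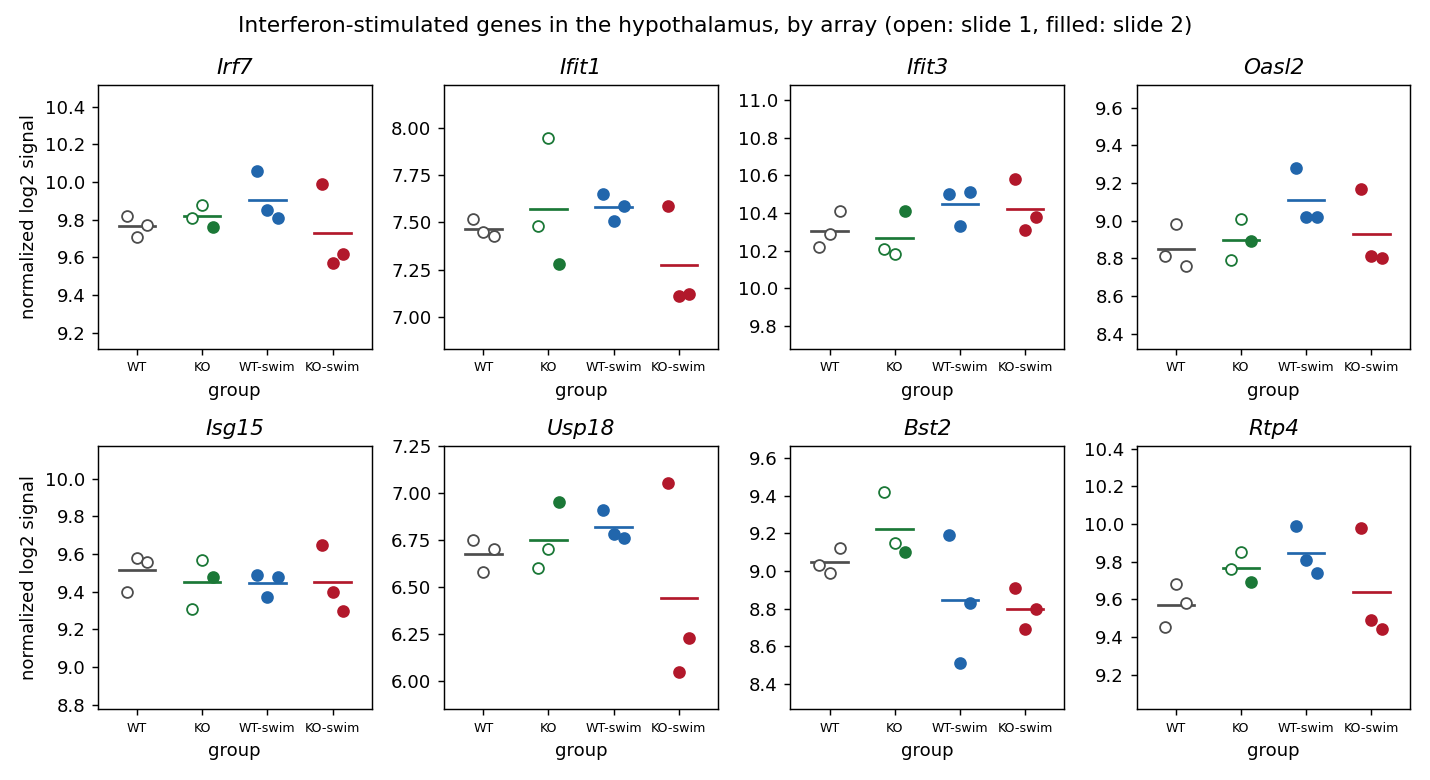
Normalized log2 signal of the 8 genes on each of the 12 arrays, by group (bars are group means of 3 arrays; open circles are slide 1, filled circles slide 2); each panel spans 1.4 log2 units. The KO-swim group has 1 array above the other 2 in every panel, and only Bst2 separates KO-swim from KO.

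Irf7 is the transcription factor that amplifies type I interferon production. Its brighter probe (chr7:148449104-148449163, mm9, reverse strand) gave 9.82, 9.71 and 9.77 in WT, 9.81, 9.88 and 9.76 in KO, 10.06, 9.85 and 9.81 in WT-swim, and 9.99, 9.57 and 9.62 in KO-swim. All groups overlapped; KO-swim 2 and KO-swim 3 were the lowest of the 12 arrays, and WT-swim 1 and KO-swim 1 the highest. The dimmer Irf7 probe gave 5.13, 5.80 and 5.63 in WT, 5.25, 5.51 and 4.78 in KO, 5.47, 5.52 and 4.90 in WT-swim, and 5.14, 4.63 and 4.63 in KO-swim. On this probe KO-swim was lower than WT by a log2 difference of -0.72 ± 0.25 (SE, n = 3 per group; limma unadjusted p = 0.0174, adjusted p = 0.0981), and the value with slide as a block was -0.12. The brighter probe gave -0.04 ± 0.11 for the same contrast, so the 2 Irf7 probes differed in size there. Elsewhere they also differed in sign. The brighter gave 0.05 and the dimmer -0.34 in KO versus WT, and 0.15 and -0.22 in WT-swim versus WT. In KO-swim versus WT-swim they gave -0.19 and -0.50. The counts of genes below use the brighter probe.

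Ifit1 and Ifit3 encode tetratricopeptide proteins of the antiviral response, and that of Ifit1 binds viral RNA and blocks its translation. Ifit1 (chr19:34723827-34723886, mm9, forward strand) read 7.52, 7.45 and 7.43 in WT, 7.48, 7.95 and 7.28 in KO, 7.65, 7.51 and 7.59 in WT-swim, and 7.59, 7.11 and 7.12 in KO-swim. The highest array was KO 2, the lowest were KO-swim 2 and KO-swim 3, and all groups overlapped. Ifit3 (chr19:34663105-34663164, mm9, forward strand) read 10.22, 10.29 and 10.41 in WT, 10.21, 10.18 and 10.41 in KO, 10.50, 10.33 and 10.51 in WT-swim, and 10.58, 10.31 and 10.38 in KO-swim. The groups overlapped, with KO-swim 1 the highest array and KO 2 the lowest. Mouse Ifit genes stand side by side as near copies, Ifit3 and Ifit3b most of all, and cross-hybridization between them was not tested.

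Oasl2 is a 2'-5'-oligoadenylate synthetase-like protein of the antiviral response. Its probe (chr5:115362168-115362227, mm9, forward strand) gave 8.81, 8.98 and 8.76 in WT, 8.79, 9.01 and 8.89 in KO, 9.28, 9.02 and 9.02 in WT-swim, and 9.17, 8.81 and 8.80 in KO-swim. The 3 WT-swim arrays lay above the 3 WT arrays without overlap. The KO-swim arrays spread from the level of KO to near the top of WT-swim. A close relative, Oasl1, could share signal with this probe, which was not tested.

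Bst2, or tetherin, holds budding enveloped virus at the cell surface. It read 9.03, 8.99 and 9.12 in WT, 9.42, 9.15 and 9.10 in KO, 9.19, 8.51 and 8.83 in WT-swim, and 8.91, 8.69 and 8.80 in KO-swim (chr8:74058603-74058662, mm9, reverse strand). All 3 KO-swim arrays lay below all 3 KO arrays and all 3 WT arrays, while WT-swim spread over both. The KO-swim minus KO difference was -0.43 ± 0.15 on the log2 scale (SE, n = 3 per group; 95% interval -0.77 to -0.08; limma unadjusted p = 0.0194, adjusted p = 0.181). With slide as a block it was -0.30 (unadjusted p = 0.199), which rests on KO 3 alone for KO. Leaving out KO 1 gave -0.33 (limma unadjusted p = 0.0779) and leaving out KO-swim 2 gave -0.37 (limma unadjusted p = 0.0644).

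Isg15 is a ubiquitin-like protein that is conjugated to other proteins, and Usp18 is the protease that removes it and that also damps signalling at the interferon receptor. Isg15 (chr4:155573649-155573708, mm9, reverse strand) gave 9.40, 9.58 and 9.56 in WT, 9.31, 9.57 and 9.48 in KO, 9.49, 9.37 and 9.48 in WT-swim, and 9.65, 9.40 and 9.30 in KO-swim. It had the smallest spread of group means, 9.45 to 9.51. Usp18 (chr6:121220874-121220933, mm9, forward strand) gave 6.75, 6.58 and 6.70 in WT, 6.60, 6.70 and 6.95 in KO, 6.91, 6.78 and 6.76 in WT-swim, and 7.05, 6.05 and 6.23 in KO-swim. KO-swim held both the highest and the lowest Usp18 array of the series (SD 0.53), whereas the SD was 0.18 or less in the other groups.

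Rtp4 is an interferon-induced chaperone of G protein-coupled receptors, among them opioid receptors. Its probe (chr16:23613668-23613727, mm9, forward strand) gave 9.45, 9.68 and 9.58 in WT, 9.76, 9.85 and 9.69 in KO, 9.99, 9.81 and 9.74 in WT-swim, and 9.98, 9.49 and 9.44 in KO-swim. KO and WT-swim each lay above WT without overlap, and KO-swim spanned both levels.

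The first comparison asked what Asmt loss did at rest. Between KO and WT, 6 of the 8 genes had a higher mean in KO, as did 46.1% of all probes tested, and 2 a lower one, with a median log2 difference of 0.06 against -0.01 over all probes tested. Rtp4 had the largest, 0.20 ± 0.14 (SE; 95% interval -0.11 to 0.50; limma adjusted p = 0.849). Of the 9 probes, 0 had an unadjusted p of at most 0.05 by limma or by the methods' t-test, against a background of 5.48% of probes by limma. The screening criterion was met by 0.224% of all probes, and an adjusted p under 0.05 by 0%. Rtp4 was the single member whose groups did not overlap, and 3.58% of probes were higher in KO without overlap. For the brighter or only probe of each gene, every 95% interval lay between -0.41 and 0.55, inside a 2-fold change; that of the dimmer Irf7 probe ran from -0.90 to 0.23. Within slide 1, which holds 2 of the KO arrays, the Rtp4 difference was 0.24 (limma unadjusted p = 0.0495, adjusted p = 1.0).

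Swimming in wild-type mice was the second comparison. WT-swim means were higher than WT for 6 of 8 genes and for 41.4% of all probes, with a median log2 difference of 0.14 against -0.04 over all probes. Rtp4 was 0.28 ± 0.14 (SE; 95% interval -0.03 to 0.58) and Oasl2 0.26 ± 0.12 (-0.01 to 0.52), with limma adjusted p of 0.224 and 0.205. Oasl2 reached a limma unadjusted p of 0.0369 without WT 2, and Rtp4 one of 0.0267 when only the WT and WT-swim arrays were fitted. Bst2 went the other way, -0.21 ± 0.15 (-0.55 to 0.13), and was -0.38 (limma unadjusted p = 0.0149) without WT-swim 1. Of the 9 probes, 0 had an unadjusted p of at most 0.05 by limma or by the methods' t-test, while 26% of all probes did by limma, 2.19% passed the screen and 0% had an adjusted p under 0.05. Rtp4, Oasl2 and Usp18 were higher without overlap of the groups, and so were 15.4% of all probes. With slide as a block the signs of Ifit3 and Usp18 turned, to -0.07 and -0.16, and the Ifit1 difference went from 0.12 to 0.55 (95% interval -0.05 to 1.15).

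Swimming in knockout mice was compared next. KO-swim was below KO for 6 of 8 genes and for 58.5% of all probes, with a median log2 difference of -0.11 against -0.04 over all probes. Bst2 was the 1 member probe with an unadjusted p of at most 0.05, by limma and by the methods' t-test, when 21.1% of all probes had one by limma, 1.21% passed the screen and 0.0199% had an adjusted p under 0.05. Its groups did not overlap, which held for 15.4% of probes in that direction. Usp18 followed at -0.31 ± 0.22 (SE; 95% interval -0.79 to 0.17; limma adjusted p = 0.421) and Ifit1 at -0.30 ± 0.17 (-0.67 to 0.08; limma adjusted p = 0.326). With slide as a block the median was -0.04 against -0.02 over all probes, and Ifit1 was 0.00 with an interval of -0.48 to 0.47. Without KO 3, the only KO array on slide 2, slide and group cannot be told apart. Bst2 was then -0.49 (limma unadjusted p = 0.0202), Ifit1 -0.44 (limma unadjusted p = 0.0253) and Ifit3 0.23 (limma unadjusted p = 0.0405). In that fit 22.9% of all probes were lower and 15.4% higher at an unadjusted p of at most 0.05.

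Knockout and wild-type mice after swimming were compared within slide 2. KO-swim was below WT-swim for 7 of 8 genes and for 53.1% of all probes, with a median log2 difference of -0.18 against -0.01 over all probes. Usp18 gave -0.37 ± 0.22 (SE; 95% interval -0.85 to 0.11), Ifit1 -0.31 ± 0.17 (-0.69 to 0.07) and Rtp4 -0.21 ± 0.14 (-0.51 to 0.09), with limma adjusted p of 0.797, 0.787 and 0.814. No member probe had an unadjusted p of at most 0.05 by limma or the methods' t-test (0 of 9), against 6.66% of probes by limma. The screening criterion was met by 0.253% of probes and an adjusted p under 0.05 by 0%. The groups overlapped for all 8 genes, while 8.28% of probes were higher and 11.2% lower without overlap.

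The comparison of KO-swim with WT joins both changes. The median over the 8 genes was -0.05, with 3 higher and 5 lower, beside -0.07 over all probes, of which 62.6% were lower. The dimmer Irf7 probe was the 1 of 9 with a limma unadjusted p of at most 0.05, against 30.4% of probes, while 2.74% passed the screen and 0% had an adjusted p under 0.05. By the methods' t-test the 1 probe was that of Bst2 (log2 difference -0.25, limma 95% interval -0.59 to 0.09), whose groups did not overlap, as was so for 27.7% of probes in that direction.

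The interaction, (KO-swim minus KO) minus (WT-swim minus WT), asks whether swimming acted differently in the 2 genotypes. It was below 0 for 6 of 8 genes and for 51.6% of all probes, with a median of -0.23 against -0.01 over all probes. Usp18 had -0.45 ± 0.30 (SE; 95% interval -1.13 to 0.23), Ifit1 -0.41 ± 0.24 (-0.94 to 0.12) and Rtp4 -0.40 ± 0.19 (-0.83 to 0.02; limma unadjusted p = 0.0614, adjusted p = 0.657). By limma 0 of 9 probes had an unadjusted p of at most 0.05, when 7.75% of all probes did, 0.593% passed the screen and 0% had an adjusted p under 0.05. With slide as a block, Ifit1 was -0.56 ± 0.22 (limma unadjusted p = 0.0324, adjusted p = 0.427). The 5 comparisons and the interaction share arrays, so their values are not independent of each other.

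**Figure D3:**
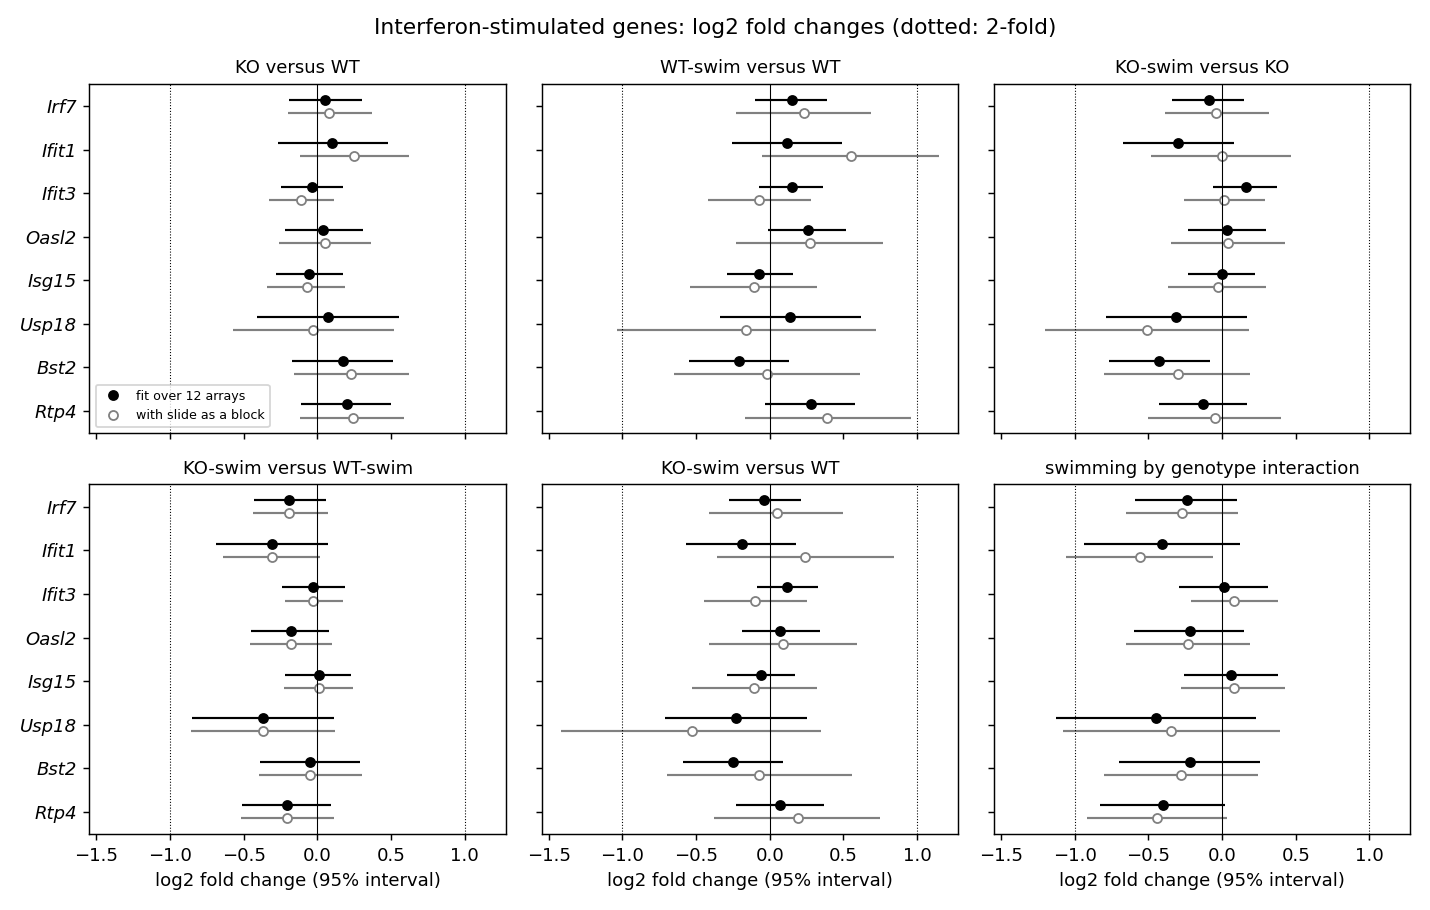
Log2 fold change of each gene in the 5 comparisons and the interaction, with 95% intervals (filled, fit over 12 arrays; open, slide as a block; dotted lines mark 2-fold). All filled intervals but that of Bst2 in KO-swim versus KO include 0, and the block moves Ifit1 in WT-swim versus WT from 0.12 to 0.55.

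Arrays of 1 group differed in how the 8 genes stood together. Each gene was set to its own mean over 12 arrays and the 8 genes were averaged per array. WT-swim 1 stood at 0.21 on the log2 scale, with 8 of 8 genes above their means, and KO-swim 1 at 0.19, with 7 of 8. KO-swim 2 and KO-swim 3 stood at -0.25 and -0.21, with 0 and 1 of 8 genes above their means. KO 2 was at 0.11 and the other 7 arrays lay within 0.05 of 0. Under scaling to the 75th percentile KO-swim 1 stood at 0.21 and KO-swim 2 at -0.23, and after normexp background correction they stood at 0.16 and -0.19.

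**Figure D4:**
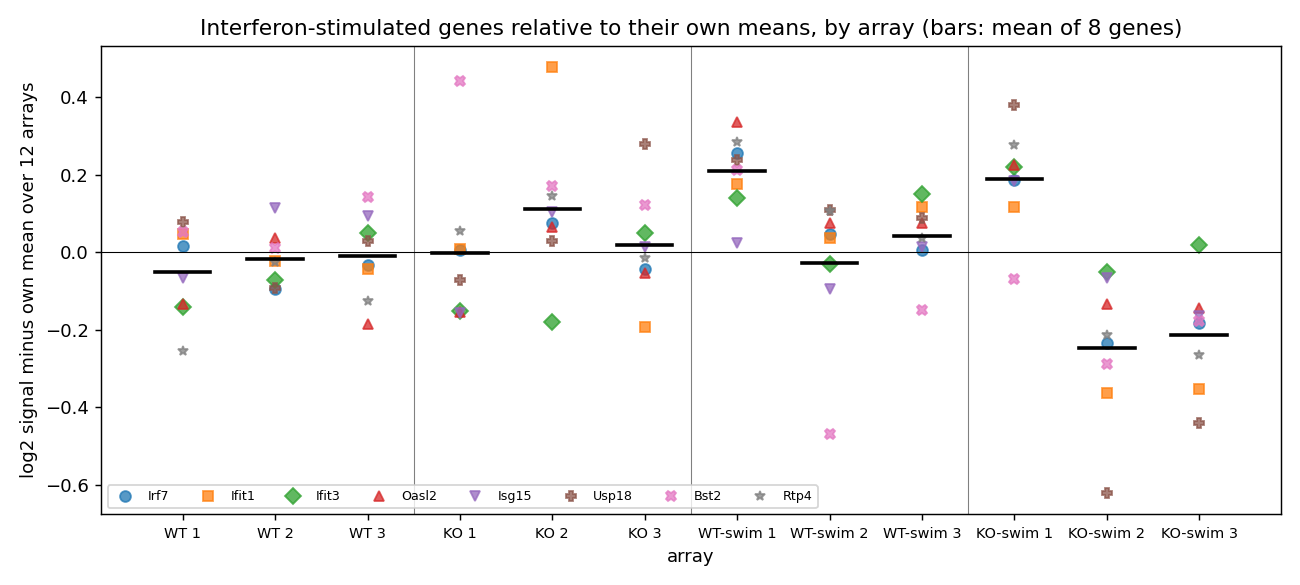
Log2 signal of each of the 8 genes minus its own mean over 12 arrays, by array; black bars are the mean of the 8 genes. The bars of WT-swim 1 (0.21) and KO-swim 1 (0.19) are the highest and those of KO-swim 2 (-0.25) and KO-swim 3 (-0.21) the lowest.

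Within KO-swim, the array KO-swim 1 was the highest for 8 of 8 genes, and for 33.0% of all tested probes. It was also highest for 32 of 43 wider interferon-stimulated genes, 15 of 27 antigen presentation and type II interferon genes, 2 of 14 microglial markers, 11 of 14 hypothalamic markers and 6 of 9 markers of ependyma and choroid plexus. Of the markers of astrocytes, oligodendrocytes, neurons and erythroid cells, 0 of 8, 0 of 8, 0 of 9 and 0 of 6 were highest there. Within WT-swim, WT-swim 1 was the highest for 7 of 8 members, 24 of 27 antigen presentation and type II genes, 22 of 43 wider interferon-stimulated genes, 10 of 14 hypothalamic and 6 of 14 microglial markers, and 30.3% of tested probes. The summed signal of the 14 microglial markers ran from 46500 to 51100 in WT, 47500 to 58200 in KO, 54000 to 57100 in WT-swim and 58500 to 59600 in KO-swim. The markers did not move together: in KO-swim versus KO 8 of 14 were lower (median -0.06), and at an unadjusted p of at most 0.05 the complement genes C1qa (-0.21) and C1qb (-0.27) and Tmem119 (-0.16) were lower while Siglech (0.86) and Itgam (0.73) were higher. Under the slide block Siglech was 0.10 and Itgam 0.20. Of 6 markers of plasmacytoid dendritic cells, which make much type I interferon, Spib and Klk1 were well above background on no array. The other 4 passed the detection filter: Siglech, Tcf4, Ccr9 and Bst2, which is itself a member. They did not move together either: in KO-swim versus KO Siglech was higher (0.86), while Tcf4 (-0.21) and Bst2 (-0.43) were lower. The part of cell makeup in these array differences was not tested.

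The fits were repeated without KO-swim 1. It had been singled out as the highest KO-swim array for all 8 genes, so leaving it out had to lower every KO-swim mean and narrow the range within KO-swim, and the values describe that array and are no test. All 8 genes were then lower in KO-swim than in WT-swim, with a median of -0.31, and 5 had an unadjusted p of at most 0.05, beside 3.25% of all probes lower at that p. The 5 were Usp18 (-0.68), Ifit1 (-0.47), Rtp4 (-0.38), Irf7 (-0.32) and Oasl2 (-0.30). Against KO 5 genes were lower at that p, beside 9.47% of probes, against WT 1, beside 12.1%, and in the interaction 5, beside 3.65%. The smallest limma adjusted p of a member without KO-swim 1 was 0.166. Leaving out WT-swim 1, the highest WT-swim array for 7 of the 8 genes, moved both medians the other way, as removing a high WT-swim array does. KO-swim was then below WT-swim for 6 of 8 genes with a median of -0.10, and the interaction was below 0 for 6 of 8 with a median of -0.15. In both, 0 members had an unadjusted p of at most 0.05, beside 4.45% and 3.64% of probes lower. Nothing in the labels sets KO-swim 1 or WT-swim 1 apart, and both are kept in the values above.

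**Figure D5:**
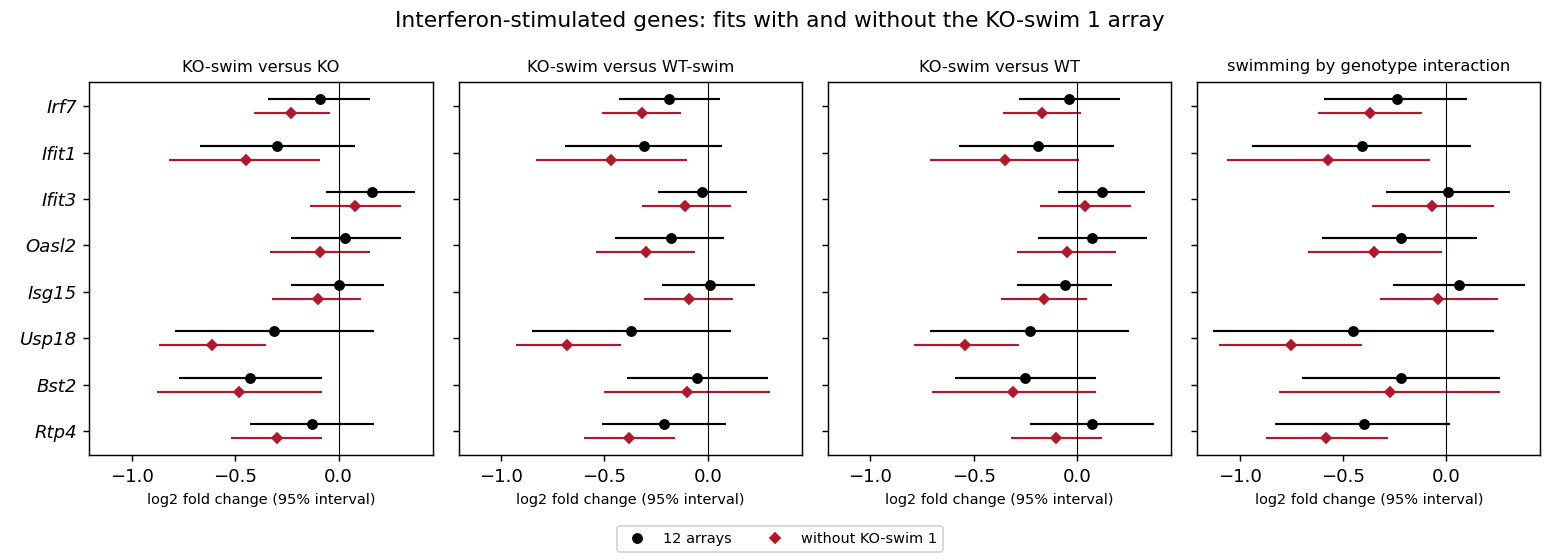
Log2 fold change of each gene with 95% intervals, from all 12 arrays (black) and without KO-swim 1 (red), in the comparisons that use KO-swim. KO-swim 1 was the highest KO-swim array for all 8 genes, so the red values had to fall. Without it, 5 of 8 intervals exclude 0 in KO-swim versus KO, KO-swim versus WT-swim and the interaction, and 1 in KO-swim versus WT.

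Over the 12 arrays the members correlated in pairs with a median Pearson r of 0.49, and 25 of 28 pairs were above 0. The highest was Oasl2 with Rtp4 (0.86) and the lowest Ifit3 with Bst2 (-0.22). Against the mean of the other members, Irf7 had r = 0.92, Rtp4 0.84 and Usp18 0.79, whereas Ifit3 had 0.29 and Bst2 0.23. Spearman rho was 0.73, 0.77, 0.51, 0.33 and 0.19 in the same order. Without WT-swim 1 and KO-swim 2, whose member mean lay farthest from the median array, Pearson r was 0.84, 0.78, 0.69, 0.12 and -0.09. The share of positive pairs over all genes was not computed. These points share slide and array, and the values are descriptive.

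The rest of the pathway was read from gene lists, which share some genes. Among 17 interferon ligand genes, 5 were tested and 7 were well above background on no array, Ifnb1 among them. Ifna14, an alpha interferon, was well above background on 3 of 3 KO-swim, 1 of 3 WT-swim, 1 of 3 KO and 0 of 3 WT arrays. It passed the detection filter only through KO-swim, the group where it was highest. That filter favoured its meeting the screening criterion in KO-swim versus KO and versus WT, so this is no test. No size is given for these 2 fits, since 2 of 3 KO arrays and all WT arrays were not above background. With slide as a block, which rests on KO 3 alone for KO, Ifna14 was 0.26 in KO-swim versus KO. All 12 receptor and signal carrier genes were tested, and in KO-swim versus KO 1 of them was lower and 0 higher at an unadjusted p of at most 0.05, a smaller share than the 13% of all probes that were lower at that p. That gene was Irf9, at -0.28 ± 0.10 (limma adjusted p = 0.179). One receptor spot was aberrant and is named because of its value: the brighter Ifnar2 probe read 17.01 on KO-swim 1 and 10.72 to 11.01 on the other 11 arrays. The scanner software marked that spot as non-uniform, and the other Ifnar2 probe read 9.12 on KO-swim 1, within the 8.91 to 9.26 of the other 11 arrays.

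The list of sensing and induction of interferon held nucleic acid sensors, their adaptors and the kinases and transcription factors downstream, with 14 genes tested. In KO-swim versus KO, 12 were lower and 6 of them had a limma unadjusted p of at most 0.05 (0 higher), against 13% of probes lower at that p. Ifih1 and Ddx58, the cytosolic RNA sensors MDA5 and RIG-I, were each -0.30 ± 0.08 (limma adjusted p = 0.151 and 0.153), and Tlr7, an endosomal RNA receptor, was -0.53 ± 0.20 (adjusted p = 0.196). With slide as a block, which rests on KO 3 alone for KO, Ifih1 was -0.25, Ddx58 -0.21 and Tlr7 -0.24. Without KO 3, which leaves KO wholly on slide 1 and KO-swim on slide 2, 8 of the 14 were lower and 2 higher at that unadjusted p. All 10 had a limma adjusted p under 0.05, beside 22.9% of probes lower at the unadjusted p and 24.3% at that adjusted p in either direction. Slide and group cannot be told apart in that fit. Ifih1 also had the smallest p of the list in the interaction, -0.41 ± 0.12 (limma unadjusted p = 0.0062, adjusted p = 0.530), and -0.43 with the block.

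Of the wider list of interferon-stimulated genes, 43 were tested and 0 had a limma unadjusted p of at most 0.05 in KO versus WT. Under the slide block 4 of them, and 3 of the 14 sensing and induction genes, were higher in KO at that p, beside 2.92% of probes, and 0 were lower. In KO-swim versus KO, 32 were lower (median -0.17) and 10 had such a p, all lower, among them Rsad2, the antiviral enzyme viperin, at -0.42 ± 0.18, and Ifi27l2a at -0.38 ± 0.14 (limma adjusted p = 0.231 and 0.186), beside 13% of probes. With slide as a block, which rests on KO 3 alone for KO, Rsad2 was -0.55 and Ifi27l2a -0.36. Slfn8 went from -0.64 to -0.21. Without KO 3, where slide and group cannot be told apart, 18 of the 43 were lower and 2 higher at a limma unadjusted p of at most 0.05. In that fit 22.9% of all probes were lower and 15.4% higher at that p. At a limma adjusted p under 0.05, 13 were lower and 1 higher, beside 24.3% of all probes in either direction. In KO-swim versus WT-swim, 36 of 43 were lower (median -0.13) and 3 had such a p, beside 4.47% of probes, and in the interaction 38 of 43 were below 0 (median -0.16) and 7 had one, beside 4.12%. Without KO-swim 1 those counts were 12 and 17 of 43, beside 3.25% and 3.65% of probes, and without WT-swim 1 they were 3 and 5, beside 4.45% and 3.64%. KO-swim 1 was singled out on the members and was also the highest KO-swim array for most genes of this list. Leaving it out had to lower the KO-swim means of those genes, so the counts without it describe that array and are no test. In the fit over all 12 arrays 0 genes of the list reached a limma adjusted p under 0.05; with WT and KO-swim fitted alone, 1 was higher and 3 lower in KO-swim at that adjusted p, beside 17.6% of all probes in either direction.

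Genes of the type II interferon response and antigen presentation (27 tested) had 3 lower and 1 higher at an unadjusted p of at most 0.05 in KO-swim versus KO, beside 13% of probes lower. Psmb8, an immunoproteasome subunit, was -0.50 ± 0.12 (limma unadjusted p = 0.00213, adjusted p = 0.135) and -0.23 with slide as a block. Of the 11 inhibitors of interferon signalling, 3 were lower at that p in WT-swim versus WT and 0 higher, beside 14.3% of probes lower. They were led by Socs1, which blocks Janus kinases, at -0.34 ± 0.09 (limma adjusted p = 0.0934). WT and WT-swim share no slide, and with slide as a block Socs1 was -0.22. Pias3 went from -0.19 to -0.16 and Pias4 from -0.22 to -0.02. In the 5-gene ISG15 conjugation pathway, which holds the enzymes that attach Isg15, 0 genes had such a p in KO-swim versus KO, when 21.1% of probes did, and 1, Trim25, in WT-swim versus WT, when 26% did (0.22 ± 0.08, and 0.01 with slide as a block).

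The 5 genes outside the 8 that followed their mean most closely over the 12 arrays, of 18255 compared, were Oas1a (Pearson r = 0.88), another oligoadenylate synthetase, then Cnot4 (0.87), Celf1 (0.85), Klra2 (0.85) and Nfkb1 (0.84). Klra2, a receptor of the Ly49 family of natural killer and myeloid cells, was well above background on only 6 of 12 arrays, so its range is not given. Cnot4, Celf1 and Nfkb1 ranged over 0.28 or less. The median r of all compared genes was 0.00, that of the wider interferon-stimulated list 0.45, of the type II list 0.43, of microglial markers 0.16 and of oligodendrocyte markers -0.41. The top 50 genes held 3 of the wider list.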

How the data were processed

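Hypothalamus RNA of 12 samples, 3 in each of the 4 groups of the labels, was measured on Agilent 8x60K arrays. For each array the authors deposited the scanner output, in which Agilent Feature Extraction 10.7.1.1 gives the background-subtracted intensity of each spot with its flags, and a table of log2 values that they had quantile-normalized in GeneSpring, next to raw intensity. The deposited log2 values were used, since own quantile normalization gave r = 1 with them. The authors' tables of selected probes hold fold changes, p-values and repeat sample values in 24 columns; none were read.

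A probe was tested if 1 group or more had it well above background on each of its 3 arrays (35230 of 56605). A model of 4 group means over the 12 arrays was fitted with limma (version 3.58.1, R version 4.3.3), with moderated variances, in place of the methods' t-test, which was run as an alternative. A gene was represented by its probe with the highest mean signal. Probe positions are in build mm9, and the number of arrays limits the precision.

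The 8 genes and all lists were chosen with earlier results of these data known. The text names every member, up to 3 genes at each end of a list at an unadjusted p of at most 0.05, the 5 genes most like the member mean, and Asmt. Alternatives were 75th percentile scaling, normexp with an offset of 50, own quantile normalization, no detection filter or one on all 12 arrays, the methods' t-test, the 2 groups alone, a trended prior, slide or replicate number as a block, probes averaged per gene, and leaving out each array; fits within slide 1 and slide 2 were added after seeing the data. The slide was read from the scanner output. Same-numbered samples did not pair: over 18 same-numbered pairs the correlation of deviations from group means ran from -0.19 to 0.24. The fitting code was tested on simulated data. Summaries were made with pandas 2.3.3 and numpy 2.4.6 under Python 3.11.15, and plots with matplotlib 3.10.9.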

Additional observations from a re-analysis of the deposited data

How the results depend on the processing

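The count of member probes past the screening criterion, and the count at a limma adjusted p under 0.05, stayed at 0 in all 218 alternative values computed (leave-one-out range 0 to 0). The smallest adjusted p of a member under any alternative was 0.0667 and the largest absolute log2 difference 0.91. Of the alternative values for single genes, 797 kept their direction and side of an unadjusted p of 0.05, 29 passed it newly, 15 of them without KO-swim replicate 1, 4 no longer passed it, all for Bst2 in KO-swim versus KO, and 42 changed sign with no such p before or after. The cause was not tested. With the replicate number as a block, the numbers not pairing the samples (4 of 18 same-numbered correlations were above 0.1), Bst2 in KO-swim versus KO stayed at -0.43 (unadjusted p = 0.00671) and the count of member probes at an unadjusted p of at most 0.05 was 1 there, as without the block. Over the arrays left out in turn, the median of the 8 genes ranged from 0.01 to 0.10 in KO versus WT, 0.09 to 0.17 in WT-swim versus WT, -0.26 to -0.03 in KO-swim versus KO, -0.31 to -0.10 in KO-swim versus WT-swim, -0.17 to 0.02 in KO-swim versus WT and -0.36 to -0.15 in the interaction. Averaging both Irf7 probes gave -0.38 in KO-swim versus WT (unadjusted p = 0.0401) against -0.04 for the brighter probe. The methods' t-test compares 2 groups and was not run for the interaction, nor was a fit on the groups compared, which there is the same fit. The 3 arrays per group limit the precision of every contrast, and WT and WT-swim share no slide.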
